A study of Homo sapiens with 2 samples.

Results

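The genes described here are 10 components of the gp130 cytokine receptor pathway: the receptor chains IL6ST, IL6R, LIFR, OSMR and CNTFR, the kinases JAK1 and JAK2, the transcription factor STAT3, and the feedback inhibitors SOCS2 and SOCS3. They were chosen by name, with results of these arrays already known, so the difference between the arrays was part of the choice and is given as a description with no test. All probe sets that the platform annotation assigns to 1 of these genes alone were taken, 38 of the 54675 on the array. Of the 19775 genes with such a probe set, 12769 passed a filter on low signal, among them 8 of the 10.

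Total RNA came from HEK-293T, an established human embryonic kidney line that carries the SV40 large T antigen. One culture received a synthetic miR-194 mimic and the other a negative control mimic, each at 50 nM for 48 h by lipofection, and both were otherwise untreated as far as the labels say. Such a mimic is a synthetic double-stranded RNA taken up by the silencing complex in place of the natural microRNA. Each group held 1 Affymetrix array, so n = 1 throughout and the conditions could not be compared by a test. The comparison asks which transcripts differ once miR-194 is supplied. Differences between the cultures, the labelling reactions and the arrays cannot be told apart from the mimic, and neither can fewer cells with a transcript from less transcript per cell.

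Most cytokines of the interleukin-6 family signal through IL6ST, also called gp130, a transmembrane chain that most receptors of the family share. Interleukin-6 binds IL6R and then an IL6ST pair, leukemia inhibitory factor (LIF) uses IL6ST with LIFR, ciliary neurotrophic factor adds CNTFR to these, and oncostatin M can use IL6ST with OSMR or LIFR. The chains have no kinase of their own. They carry Janus kinases, mainly JAK1 with JAK2, which phosphorylate the chains and then STAT3, and STAT3 enters the nucleus and switches on genes that include its own inhibitor SOCS3.

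The sequence supplied in the treated culture is shown because its seed, bases 2 to 8 in capitals, is what a microRNA uses to select transcripts. The labels do not say which arm the mimic represents, so both mature arms are given as RefSeq lists them on GRCh38.p14.
hsa-miR-194-5p: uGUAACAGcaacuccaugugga
hsa-miR-194-3p: cCAGUGGGgcugcuguuaucug
The 5p arm is encoded at chr1:220118206-220118227 (MIR194-1) and chr11:64891404-64891425 (MIR194-2), both on the minus strand, and the 3p arm at chr11:64891368-64891389, also on the minus strand. The letters that pair with the 5p seed are CUGUUAC. No other mature microRNA in the RefSeq table has the 5p seed. Transcript sequence was not used here, so target sites in the 10 genes were not searched. Whether the array reads the mimic itself was not tested.

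Signals are the authors' MAS5 values on a log2 scale, given here also as linear signal. The floor is the median signal of each array without its control probe sets, 68.6 for the control mimic and 66.8 for miR-194, and lower signals were raised to it. Probe sets whose floored log2 signals averaged above the mean floor were kept, 19 of the 38. A gene's difference is that of its brightest kept probe set, as log2 signal with miR-194 minus log2 signal with the control mimic. The value after the ± sign is the probe set error, an estimate for a single probe set at that signal level. It is the typical disagreement between a gene's brightest kept probe sets over the whole array, scaled down to a single probe set. The disagreement between probe sets is therefore larger than the value printed. The probe set error leaves out variation between cultures. A fold measured against the floor is a bound and is written as "at least".

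**Figure D1:**
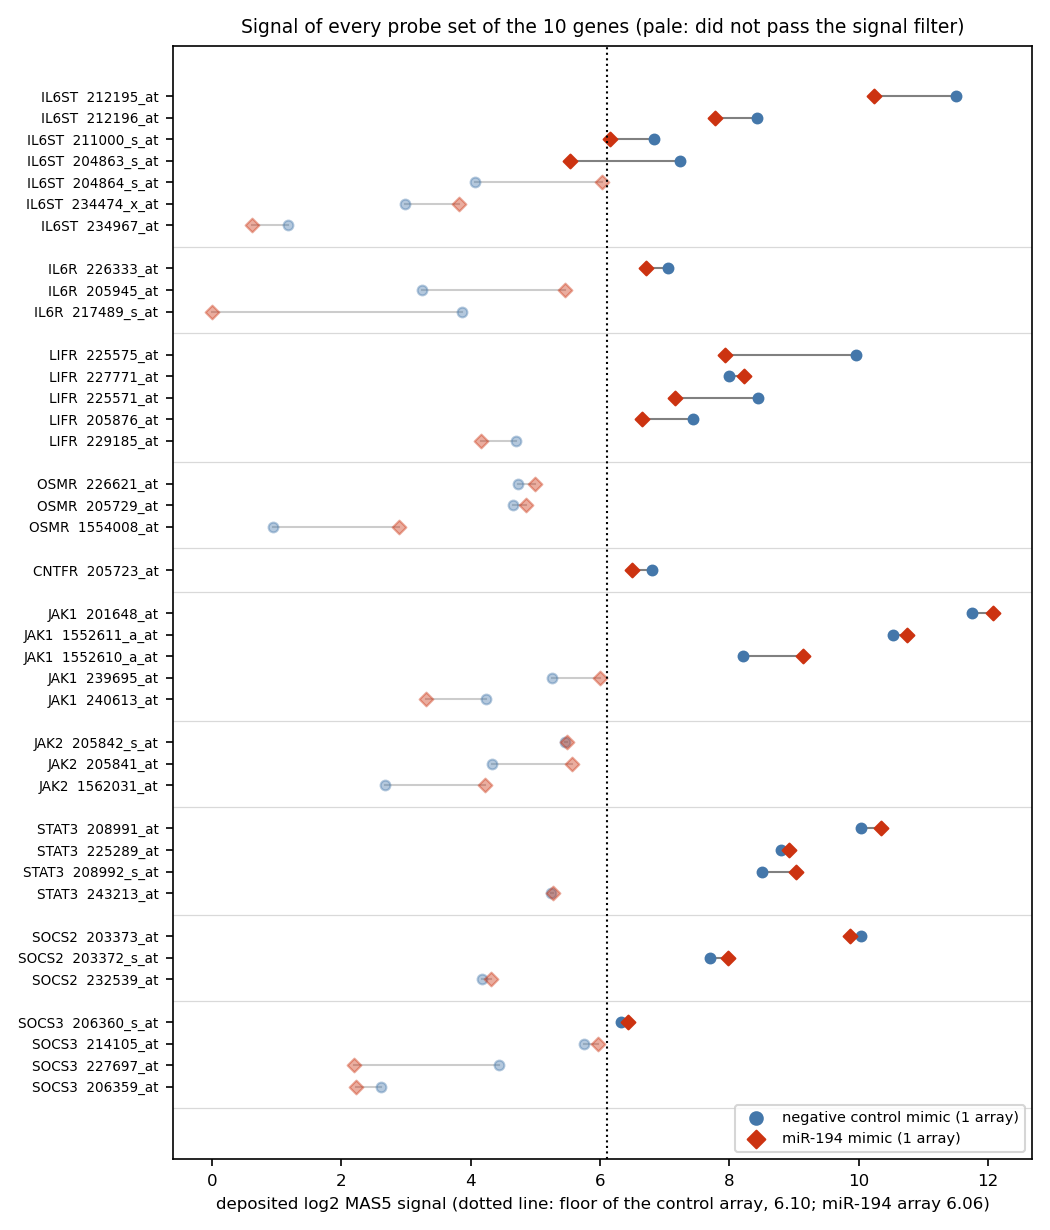
Deposited log2 MAS5 signal of all 38 probe sets of the 10 genes, with the control mimic (blue circles) and the miR-194 mimic (red diamonds), 1 array each, joined by a line per probe set. The dotted line is the floor, and pale points did not pass the signal filter. All 4 kept IL6ST probe sets and 3 of the 4 kept LIFR probe sets lie lower with miR-194, while the kept JAK1 and STAT3 probe sets lie higher, by 0.12 to 0.93 on the log2 scale.

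The 2 signalling chains of the LIF receptor were lower with miR-194 on their brightest probe sets. JAK1 and STAT3 below them were not, and JAK2 lay under the floor. LIFR was lower by 4.07-fold (-2.02 ± 0.38) and IL6ST by 2.42-fold (-1.27 ± 0.31). The second brightest LIFR probe set went the other way, at 0.23. No other member passed 1.5-fold on its brightest probe set. Of the 19 kept probe sets, 7 were lower and 1 was higher by 1.5-fold or more, where 7.99% and 5.08% of all 24226 kept probe sets were. Of all 12769 genes, 7.31% passed 1.5-fold downward, 2.98% passed it upward, and 1.42% passed 2-fold downward. Because the genes were chosen with this contrast known, nothing is read from the members' counts beside those shares. The 8 genes had a median log2 difference of -0.23, against 0.02 over all genes.

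IL6ST is the chain that most receptors of the family share. Its brightest probe set, 212195_at, read 2908 on the control array and 1202 on the miR-194 array. The next, 212196_at, read 343 and 220, a log2 difference of -0.64. The remaining kept probe sets are of a type designed on sequence shared between transcripts, and their signals lie close to the floor with miR-194. Of these, 211000_s_at read 114 and 70.8, a log2 difference of -0.69. The other, 204863_s_at, read 151 and then 46.2, which is under the floor, so it was at least 2.25-fold lower. This last probe set passed the filter only through the control array, so its direction was fixed by the filter. The 3 IL6ST probe sets above the floor on both arrays were all lower by 1.5-fold or more, with a mean log2 difference of -0.87, or -0.94 with 204863_s_at. Of 2532 genes that had 3 or more probe sets above the floor on both arrays, 23 (0.908%) were lower by that size on all of them, IL6ST included. Of 1237 genes that had 4 or more kept probe sets, bounds counted, 10 (0.808%) were lower by that size on all, and 10.9% were below 0 on all. IL6ST has 4 kept probe sets only with 204863_s_at counted, so its place among these 10 rests partly on the filter. The 3 IL6ST probe sets that were not kept, 204864_s_at, 234474_x_at and 234967_at, read between 1.54 and 65.4 and lay under the floor on both arrays, where differences have no order.

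LIFR, the chain that binds LIF and pairs with IL6ST, had the third lowest difference of all 12769 genes, after ANKRD12 and CEP290. Its brightest probe set, 225575_at, read 988 on the control array and 243 on the miR-194 array. Another, 225571_at, read 349 and 142, a log2 difference of -1.29, and 205876_at read 174 and 99.9, a log2 difference of -0.80. These 3 probe sets were lower by 1.5-fold or more. The fourth kept probe set, 227771_at, went the other way, with 256 and 300 and a log2 difference of 0.23. The probe sets of LIFR therefore disagreed by 2.25 on the log2 scale, and a spread that wide was found in 3 of those 1237 genes (0.243%), LIFR among them. With the second brightest probe set in place of the brightest, LIFR was at 0.23, and with the mean over its probe sets it was at -0.97. The fifth probe set, 229185_at, read 26.1 and 17.8, under the floor on both arrays. Where each probe set lies on the transcript is not given in the sources used here, so which LIFR transcripts each one reads was not tested. No LIFR probe set is of a shared-sequence type.

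**Figure D2:**
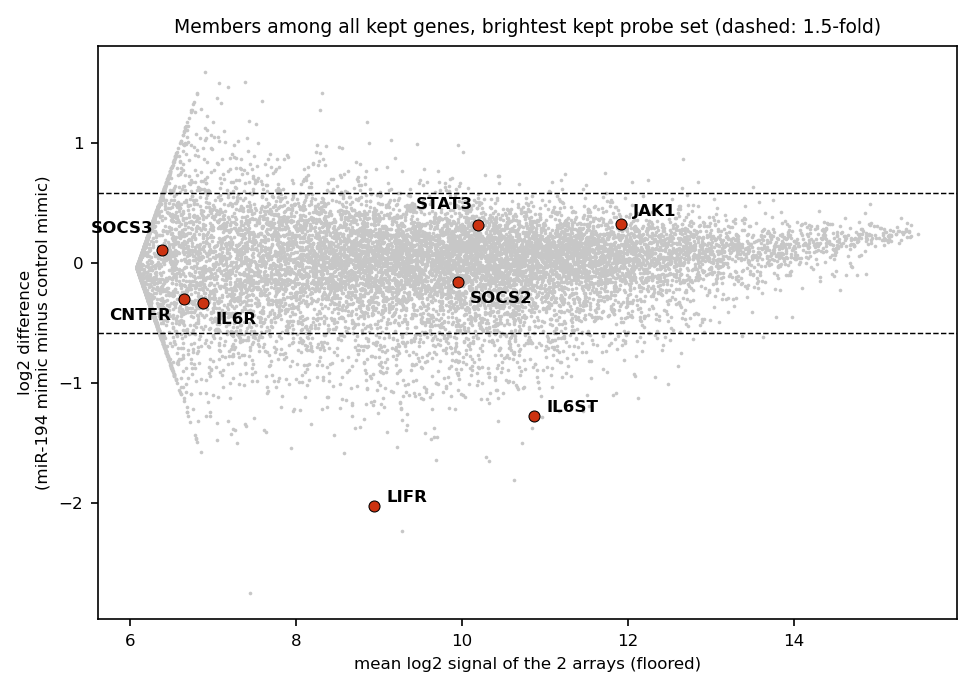
Log2 difference between the arrays against the mean floored log2 signal for 12769 genes (grey), each read by its brightest kept probe set, with the 8 kept members in red and dashed lines at 1.5-fold. LIFR (-2.02) has the third lowest difference and IL6ST (-1.27) ranks 51 from the lowest, and the other 6 members lie between the dashed lines.

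The ligand-specific chains other than LIFR were read at low signal. IL6R, which gives interleukin-6 its receptor, had 1 kept probe set of 3, 226333_at, with 132 and 104, a log2 difference of -0.34 ± 0.38. The other IL6R probe sets lay under the floor on both arrays, and 217489_s_at is listed at a log2 value of 0 with miR-194. CNTFR, the chain for ciliary neurotrophic factor, read 111 and 90.3 on its only probe set, a log2 difference of -0.30 ± 0.38. Both genes were lower by less than the probe set error. OSMR, the oncostatin M chain, lay under the floor on both arrays with all 3 of its probe sets. Its brightest read 26.5 and 31.8, and its values over the 3 ran from 1.93 to 31.8. A difference of OSMR was therefore not measurable on these arrays.

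The genomic neighbours of LIFR, OSMR and IL6ST were looked up after the values were seen. Those of IL6R and CNTFR are not described here. In the RefSeq order of protein-coding genes on chromosome 5, EGFLAM, LIFR, OSMR and RICTOR follow each other. EGFLAM, a matrix protein gene, read 103 and 74.3, close to the floor, a log2 difference of -0.47. RICTOR, a subunit of mTOR complex 2, read 962 and 447 on its brightest probe set, a log2 difference of -1.10, with its other kept probe sets at -0.54 and -0.34. IL6ST lies between IL31RA, another receptor chain, and ANKRD55. All probe sets of IL31RA and ANKRD55 lay under the floor on both arrays.

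The share of genes that passed 2-fold downward differed with genomic length. It was 3.29% in the longest of 5 length classes, which holds LIFR (134 kb) and JAK1 (235 kb). It was 1.92% in the next class, which holds IL6ST (59.9 kb), STAT3 (75.1 kb), IL6R (64.1 kb) and SOCS2 (56.3 kb). In classes 1 to 3, counted from the shortest, the share was 0.47%, 0.392% and 1.02%. The part of length in the LIFR and IL6ST values was not tested.

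JAK1 is the kinase that IL6ST signalling depends on most. It read 3450 on the control array and 4311 on the miR-194 array on 201648_at, a log2 difference of 0.32 ± 0.27. Its shared-sequence probe sets read 1477 and 1711 on 1552611_a_at (0.21) and 297 and 564 on 1552610_a_at (0.93). All 3 kept JAK1 probe sets were higher, and 1 of them, the dimmest, passed 1.5-fold. Of 2980 genes that had 3 or more kept probe sets, 17% were above 0 on all of them. The remaining JAK1 probe sets, 239695_at and 240613_at, lay under the floor on both arrays and had opposite signs. JAK2, the partner kinase, lay under the floor with all 3 probe sets, between 6.38 and 47.5. Its brightest, 205842_s_at, read 43.9 and 44.8.

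STAT3 carries the signal to the nucleus. It read 1050 and 1305 on 208991_at, a log2 difference of 0.31 ± 0.31, 442 and 482 on 225289_at (0.12), and 364 and 524 on 208992_s_at (0.52). All 3 kept STAT3 probe sets were higher and none reached 1.5-fold. The fourth, 243213_at, read 37.6 and 38.5, under the floor. The STAT3 difference is about as large as the probe set error. Phosphorylated STAT3, the active form, is not read by an expression array.

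SOCS proteins bind activated receptors or kinases and shut them off. SOCS2, which acts mainly on growth hormone signalling, read 1043 and 933 on 203373_at, a log2 difference of -0.16 ± 0.31. Its other kept probe set, 203372_s_at, read 207 and 253, a log2 difference of 0.29, so the SOCS2 probe sets differed in sign. SOCS3, the inhibitor that binds IL6ST itself, read 80.2 and 86.4 on 206360_s_at, a log2 difference of 0.11 ± 0.38 close to the floor. Its other 3 probe sets lay under the floor on both arrays, between 4.59 and 62.4. Neither inhibitor differed by more than the probe set error.

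**Figure D3:**
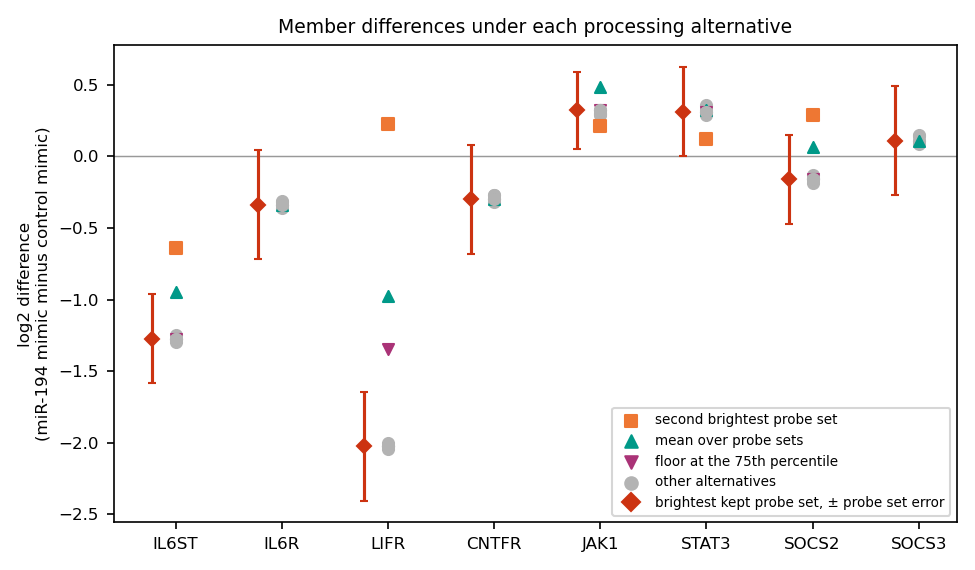
Log2 difference of the 8 kept members. Red diamonds with bars give the brightest kept probe set ± the probe set error, and the points beside them give the value under each processing alternative. IL6ST stays between -1.30 and -0.64, LIFR runs from -2.05 to 0.23 with the second brightest probe set at the upper end, and SOCS2 lies on both sides of 0.

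The wider pathway was described with 5 lists of 68 genes that hold the 10 members as well. Of these genes, 9 were not analysed here, and 10 did not pass the filter. Of the 58 other genes, 41 passed it. Among these 41, 4 (9.76%) were lower and 1 (2.44%) was higher by 1.5-fold or more, against 7.31% and 2.98% of all genes. The shares of the 41 lie near those of all genes. The median log2 difference of the 41 was -0.10.

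The ligands were barely read. Of 10 ligand genes, 2 passed the filter, and both lay under the floor with the control mimic. LIF was at least 1.10-fold higher (0.14) and IL27 at least 1.14-fold higher (0.19), a direction fixed by the filter, which they passed only through the miR-194 array. IL6, IL11, OSM, CNTF, CTF1 and EBI3 did not pass. Among the receptor chains outside the members, IL11RA, the interleukin-11 chain, was at 0.21 ± 0.38. IL27RA was at -0.22 ± 0.38 with its probe sets between -0.63 and 0.14. IL31RA and LEPR did not pass the filter. IL6ST and LIFR were the 2 of 6 kept receptor chains past 1.5-fold on the brightest probe set, where 10.3% of all genes were. Both are members chosen with this contrast known, so nothing is read from that count.

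Among 8 kept Janus kinases and STATs, STAT4 alone passed 1.5-fold, where 10.3% of all genes did in either direction. STAT4, known for interleukin-12 signalling in lymphocytes, read 72.5 and 144 on its single probe set, a log2 difference of 0.99 ± 0.38 that starts close to the floor. STAT5A was the lowest at -0.47, a bound of at least 1.38-fold. Its direction was fixed by the filter, which it passed only through the control array. TYK2 was at 0.27 ± 0.31, STAT6 at 0.06 ± 0.38 and STAT5B at 0.01 ± 0.38, with 5 STAT5B probe sets between -0.19 and 0.21. The list's median was 0.17.

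Of 18 kept SOCS genes and other negative regulators, 2 were lower by 1.5-fold or more and none was higher, with a median of -0.03. Of all genes, 7.31% were lower and 2.98% were higher by that size. SOCS4 read 1644 and 830 on its brightest probe set, a log2 difference of -0.99 ± 0.31, but its other probe set was at 0.02. SOCS6 read 401 and 203, a log2 difference of -0.98 ± 0.38, but its other kept probe set was at 0.29. As with LIFR, the brightest probe sets of these genes were lower and another was not. SOCS5 was at -0.35 ± 0.38 with 3 probe sets that were all below 0, and SOCS7 was at 0.05 ± 0.31. The highest was USP18, an enzyme that restrains interferon receptors, at 0.42 ± 0.38.

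In the list of adaptors and the MAPK branch, 2 of 15 kept genes were lower by 1.5-fold and none was higher (median -0.16). The shares of all genes were 7.31% and 2.98%. SOS2, an exchange factor that activates RAS, was at -0.92 ± 0.38 with its other kept probe set at -0.25. Its paralogue SOS1 was at -0.37 ± 0.31 with kept probe sets between -0.55 and 0.26. GAB2, a docking protein, read 171 and 106 on its single probe set, a log2 difference of -0.68 ± 0.38. STAMBP, a deubiquitinase that binds STAM, was the highest at 0.31 ± 0.27.

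**Figure D4:**
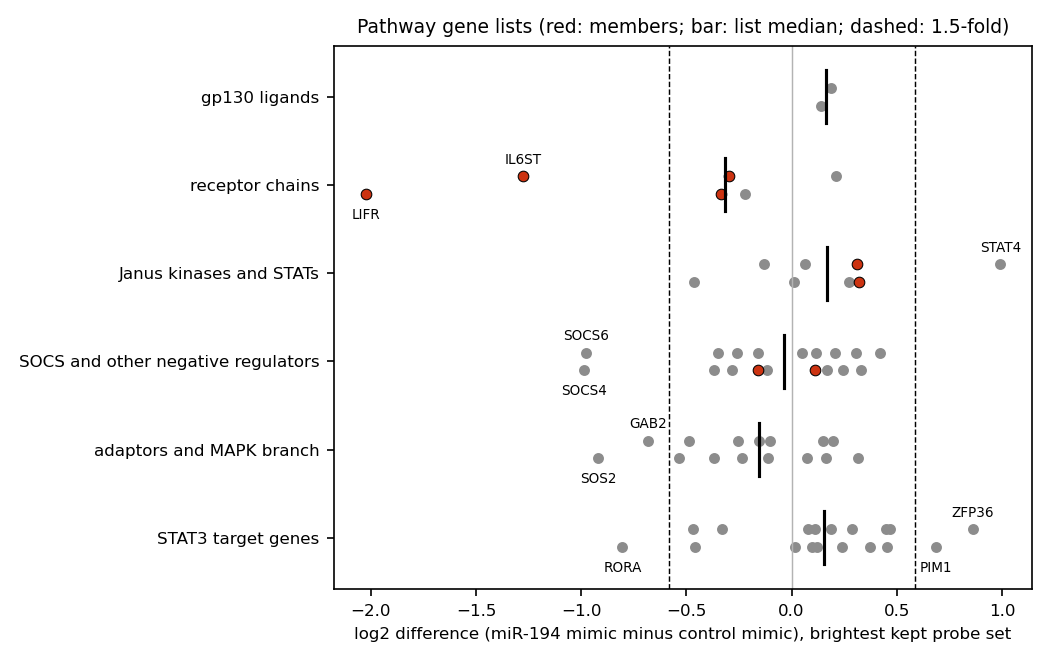
Log2 difference of the brightest kept probe set for each kept gene of the 5 pathway lists and the STAT3 target list, with members in red, list medians as black bars and dashed lines at 1.5-fold. LIFR and IL6ST lie apart at the left of the receptor row, and the row medians lie between -0.32 and 0.17.

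Genes known to be switched on by STAT3 were given as a further list of 31. Of these, 18 passed the filter, 2 were higher and 1 was lower by 1.5-fold or more, where 2.98% and 7.31% of all genes were, and the median was 0.15 against 0.02 over all genes. ZFP36, which destabilises inflammatory messages, lay under the floor with the control mimic (23.1) and read 125 with miR-194, at least 1.82-fold higher, a direction fixed by the filter. PIM1, a survival kinase, read 194.4 and 313, a log2 difference of 0.69 ± 0.38. RORA, a nuclear receptor, was lower at -0.80 ± 0.38, with its 4 kept probe sets of 8 all below 0. MYC was at 0.45 ± 0.27, BIRC5 at 0.29 ± 0.27 and MCL1 at 0.24 ± 0.27, whereas CCND1 was at -0.46 ± 0.31 and HIF1A at -0.47 ± 0.27. JUNB, an early target, was at 0.02 ± 0.38 on signals of 102 and 103. The acute-phase genes of the list, such as FGA, FGB, FGG, HP and CRP, did not pass the filter. Of the 18, 14 were above 0, as were 52.4% of all genes, and this was not tested.

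The genes most like IL6ST were sought among the 9 others with 4 or more kept probe sets that were all lower by 1.5-fold or more, by the gap between log2 differences over the 2 arrays. IL6ST itself has 4 kept probe sets only with 204863_s_at counted, whose direction was fixed by the filter. ERGIC2, a protein of the endoplasmic reticulum and Golgi, was nearest at -1.23 (gap 0.04), followed by VPS13A, a lipid transfer protein, at -1.37 (gap 0.10). PPIG, a cyclophilin, was at -0.93, ATRX, a chromatin remodeller, at -1.65, and EIF5B, a translation initiation factor, at -0.86. The gaps of ERGIC2 and VPS13A are smaller than the probe set error. The genes were picked by the smallest gaps, so nothing is read from that.

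Promoter sequence was searched for TTCNNNGAA, the palindrome that STAT dimers are known to bind, which reads the same on both strands. RefSeq windows of 300 bases on GRCh38.p14, from 250 before to 50 after a transcript start, were available for 9 of the 10 genes, in 17 windows. Of the 17 windows, 2 (11.8%) held the letters, both of them among the 3 windows of LIFR, and 7.66% of all 35116 windows did. The stretches are shown because LIFR had the largest difference, with the motif in capitals.
LIFR, 182 bases before a start: gctttggagtTTCATCGAAaggtctttaa
LIFR, 165 bases before a start: ccattactagTTCCTTGAAccacaatcca
They lie at chr5:38557631-38557659 and chr5:38595552-38595580, both on the minus strand. A match is a description of these letters, and no binding was measured.

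The cell line was checked against markers. Of 10 measured markers known for HEK-293 cells, 9 passed the filter, with vimentin (VIM) at 15682 and 19013 and the neurofilament gene NEFL at 1736 and 1921 (its probe sets between -1.17 and 0.15), while LHX1 did not pass. ENO2 alone passed 1.5-fold, at 0.74 ± 0.38 on signals of 74.1 and 123, and LIN28B was the lowest at -0.46 ± 0.27. Their summed signal was 24941 and 27443, most of it from VIM. Defining markers of other cell types, ALB of hepatocytes, PTPRC of blood, CDH5 of endothelium and PDGFRA of fibroblasts, did not pass the filter. The kept markers numbered 2 of 12, 6 of 10, 1 of 10 and 4 of 10 for these types. The brightest kept ones were CYP2E1 of hepatocytes (183 and 274) and LCP1 of blood (280 and 325). For endothelium it was PECAM1 (103 and 103), and for fibroblasts COL1A1 (450 and 461). The summed signals were 620 and 814 for hepatocyte, 855 and 872 for blood, 215 and 314 for endothelial and 924 and 901 for fibroblast markers, the control array given before the miR-194 array. No measured marker was at 0.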

How the data were processed

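Total RNA was labelled with a 3' expression kit and hybridised to 1 array per group, per the labels' protocols. The authors deposited log2 signals, 1 per probe set and array, and the submitters' processing notes name MAS5 without a version. Base 2 is an inference from the values, since the 2% trimmed means of the arrays coincide at 500.1 on that scale. The scaling target is not given in the sources used here. Detection calls and scanner files were not used here. Sample groups came from the treatment label. The platform annotation names 1 gene for 41097 probe sets, of which 41043 matched RefSeq through the Entrez identifier. The floor, the filter and the brightest kept probe set are as defined in the text. For the probe set error, the log2 differences of a gene's 2 brightest kept probe sets were subtracted, and the SD of the result over 6456 genes was divided by the root of 2, giving 0.38, 0.31 and 0.27 in the classes of signal separated at mean log2 values of 9.23 and 10.87. Thresholds were 1.5-fold and 2-fold. No test was run, as 1 array per group allows none, and the number of arrays limits the precision. Named genes are the members, list genes past 1.5-fold, each list's highest and lowest gene, and the 5 nearest to IL6ST. Other list genes and the neighbours were named after their values were seen. The members and lists were chosen with earlier results of these data known. Alternatives were other scalings (median, quantile, loess with a span of 0.3), floors (25th and 75th percentile, none), probe set choices and a 2-fold threshold. The calculation was tested on simulated data. Python 3.11.15, numpy 2.4.6, pandas 2.3.3, scipy 1.17.1, statsmodels 0.14.6 and matplotlib 3.10.9 were used.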

Additional observations from a re-analysis of the deposited data

How the results depend on the processing

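The scaling alternatives, the floor at the 25th percentile, no floor, and leaving out shared-sequence probe sets kept IL6ST between -1.30 and -1.25 and LIFR between -2.05 and -2.00. IL6ST was at -0.64 with the second brightest probe set and at -0.94 with the mean over its kept ones. LIFR was at -0.97 with the mean, at -1.34 with a floor at the 75th percentile, and at 0.23 with the second brightest, a change of sign. SOCS4 (0.023) and SOCS6 (0.29) also changed sign with the second brightest probe set. The count of members past 1.5-fold was 2 under every alternative but the second brightest probe set, where it was 1. Pathway genes lower by 1.5-fold numbered 6 of 49, 11 of 59 with no floor, 3 of 49 with the mean over probe sets and 2 of 49 at 2-fold. These counts hold the members, chosen with this contrast known, so nothing is read from them beside the shares of all genes. IL6ST and LIFR are the 2 at 2-fold. Without the members, 4 of 41 pathway genes were lower by 1.5-fold and 0 by 2-fold. Pathway genes higher by 1.5-fold numbered 1 of 49, 2 of 55 with a floor at the 25th percentile and 3 of 59 with no floor. They numbered 3 of 29 with the second brightest probe set, 0 of 33 with a floor at the 75th percentile and 0 of 49 at 2-fold. STAT3 targets past 1.5-fold numbered 3 of 18, 8 of 25 with a floor at the 25th percentile and 8 of 29 with no floor. They numbered 0 of 11 with a floor at the 75th percentile and 0 of 18 at 2-fold. The shares of all genes lower and higher by 1.5-fold were 13.5% and 8.79% with a floor at the 25th percentile and 17.8% and 13.2% with no floor. They were 8.1% and 6.71% with the second brightest probe set, and 6% and 0.726% with a floor at the 75th percentile. With the mean over probe sets they were 5.29% and 2.69%, and at 2-fold 1.42% and 0.431%. No paired analysis was possible because each group has 1 array.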

Other observations

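Receptors outside the gp130 family were read for comparison, with a list of 33 class I and class II cytokine receptor genes chosen after the data were seen. Of these, 16 passed the filter and none was past 1.5-fold in either direction on its brightest probe set, where 10.3% of all genes were, with log2 differences between -0.43 and 0.49 and a median of 0.07. Some interferon receptor chains were among the best read. IFNGR1 read 3943 after the control mimic and 3663 after miR-194, a log2 difference of -0.11, with its probe sets between -0.25 and 0.38. IFNGR2 read 3468 and 3670 (0.08), and IFNAR2 read 1249 and 1226 (-0.03). At lower signal, IFNAR1 read 502 and 598 (0.25), with its probe sets between -0.50 and 0.39, and IFNLR1 was at -0.22. IL13RA1, a chain for interleukin-13, read 1057 and 1093 (0.05), and GHR, the growth hormone receptor, read 354 and 316 (-0.16). IL10RB, shared by interleukin-10 family receptors, was the highest at 0.49 on signals of 580 and 815. Another probe set of EPOR, the erythropoietin receptor, was at 1.55, while its brightest was at 0.20. IL12RB1 was the lowest at -0.43, a bound, since it lay under the floor with miR-194, so its direction was fixed by the filter.

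The array also has a probe set assigned to MIR194-2, 1556718_s_at, which read 19.9 with the control mimic, under the floor, and 78.8 with the miR-194 mimic. Its floored log2 difference was 0.20, a bound, with a direction fixed by the filter, which it passed only through the miR-194 array. Another, 1556717_at, lay under the floor on both arrays with 12.3 and 46.8. Whether they read the mimic was not tested.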
